A study of Caenorhabditis elegans with 14 samples.

Results

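The RNA-dependent RNA polymerase module is described here as a source of small RNAs of its own, across 12 small RNA libraries of Caenorhabditis elegans. Its members were chosen by name. They were the polymerase genes ego-1, rrf-1, rrf-2 and rrf-3, the Dicer-related helicase gene drh-3, the Tudor domain gene ekl-1 and the DEAD-box helicase gene rde-12. All 7 names matched 1 gene ID each, so the members were 7 of the 20541 genes of the count table, and all 7 passed the filter on low counts that left 10470 genes for testing.

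The series concerns heritable silencing at sid-1, a gene for a double-stranded RNA transporter, and counted small RNAs of 21 to 26 nt per gene in young adults staged by timed egg laying. Strain HC995, labelled hrde-1;HC125, put an hrde-1 mutation into the HC125 background described next (2 libraries), and the labels do not name the allele. F21 (2 libraries, de-silenced) and F6 (2 libraries, silenced) were worms of strain HC83 labelled non-array at generation 21 and generation 6, and the genotype of HC83 is not spelled out in the labels. HC125 carried Psid-1::gfp, in which the sid-1 promoter drives gfp (4 libraries), and N2 was the wild type (2 libraries). Every library analysed was described as 5'-independent and had a polyphosphatase step, which lets RNAs with a 5' triphosphate be ligated.

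In worms, RNA-dependent RNA polymerases copy a target messenger RNA into short antisense RNAs that begin with a triphosphate and mostly with G, the 22G-RNAs. EGO-1 and RRF-1 make these secondary small RNAs in the germline and soma together with DRH-3 and EKL-1, RRF-3 makes the primary 26G-RNAs with Dicer in the ERI complex, and RDE-12 couples target recognition to that amplification. HRDE-1 is a nuclear Argonaute of the germline that binds 22G-RNAs and carries silencing across generations. The counts below are of small RNAs that map to the module's own genes, and do not measure the messenger RNA, the protein or the activity of any member.

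Assigned reads per library ranged between 451389 and 6379388, and HC995 had the deepest library of the series. Small RNAs at hrde-1 itself came to 471 and 540 CPM (counts per 1000000 assigned reads, scaled by TMM factors) in HC995, against 816 to 1273 CPM in the other 10 libraries. A count of small RNAs at hrde-1 is no direct check of the mutation. At sid-1 the group means were 532 ± 36.4 CPM in HC995, 766 ± 49.6 CPM in F21, 4446 ± 406 CPM in F6, 2312 ± 216 CPM in HC125 and 811 ± 35.9 CPM in N2 (SD, n = 2 each, n = 4 for HC125). In a principal component analysis HC995 stood apart on the first component, at -78.8 and -85.1, with the other 10 libraries between 4.55 and 31.6. HC995 thus differed from the rest over many genes, not at the members alone. HC125 replicates 1 and 2 and N2 replicate 2 stood apart from all other libraries on the second component, and N2 replicate 1 on the third. Of the 31 major sperm protein (msp) genes, at most 1 was at 0 in any library. As a share of counts their sum was highest in HC125 replicates 1 and 2 and N2 replicate 2, at 0.131% to 0.190%. It was 0.0286% to 0.0967% in the other 9. No label says that replicates came from separate cultures, so a p-value here reflects the spread among these libraries, which may be technical.

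Small RNAs at the module were lower in HC995 at rrf-2 and rde-12, and no member was called higher. With edgeR's quasi-likelihood test and a Benjamini-Hochberg adjusted p under 0.05 over all genes tested, rrf-2 and rde-12 fell in HC995 against each of the other 4 groups, and rrf-1 fell against HC125. That made 2 of 7 members called against F21, where 14.7% of all tested genes were called and 8.77% were called lower. Against F6 2 of 7 were called, with 17.3% of all genes called and 10% called lower. Against HC125 3 of 7 were called, with 17% of all genes called and 9.2% called lower. Against N2 2 of 7 were called, with 17.7% of all genes called and 8.89% called lower. The 4 comparisons share the 2 HC995 libraries, so they are not independent of each other. The median log2 fold change over the 7 members was -0.37 against F21, -0.43 against F6, -0.39 against HC125 and -0.35 against N2. The median over all tested genes lay between -0.03 and 0.04. The members were split, so their median does not describe each of them. Against HC125 ego-1, rrf-3 and ekl-1 lay at -0.01, -0.02 and -0.02, and against N2 rrf-3 lay at 0.38.

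**Figure D1:**
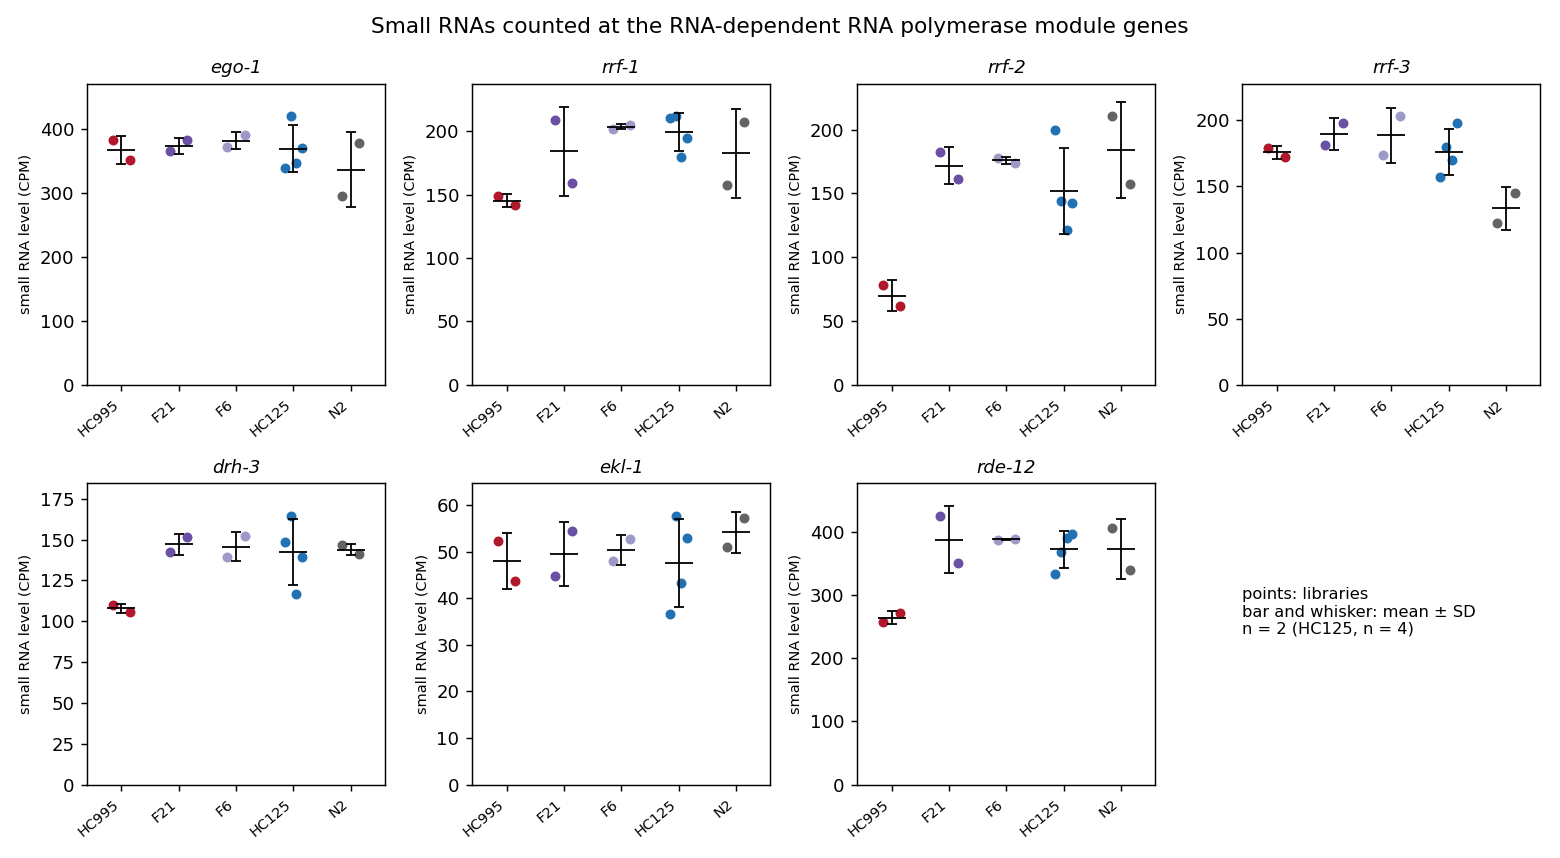
Small RNA level of each module gene in CPM (vertical axes, starting at 0) in the 5 groups. HC995 is hrde-1;HC125. Points are libraries, and the bar and whisker give the mean ± SD over 2 libraries (4 for HC125). The 2 HC995 libraries lie below all 10 others for rrf-1, rrf-2, drh-3 and rde-12, and within them for ego-1, rrf-3 and ekl-1. The share of all tested genes that separate in this way was not counted.

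rrf-2 (WBGene00004509, chromosome I, 12098664 to 12106112 on the minus strand of WBcel235) encodes a further member of the polymerase family. It had 78.5 and 61.5 CPM in the HC995 libraries, against 182 and 161 CPM in F21 and 178 and 174 CPM in F6. It had 199.998, 144, 122 and 143 CPM in HC125, and 211 and 157 CPM in N2. Both HC995 libraries lay far below the lowest of the other 10, while the other groups overlapped each other. The share of all tested genes whose HC995 libraries lie apart in this way was not counted, here or for the members below.

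Relative to HC125, rrf-2 fell by 1.08 ± 0.19 on the log2 scale (SE), a level 0.473 of that in HC125 with a 95% interval of 0.36 to 0.622 (edgeR quasi-likelihood test, adjusted p = 0.000379). It fell by 1.30 ± 0.21 against F21 (edgeR adjusted p = 0.00022), by 1.33 ± 0.20 against F6 (0.000125) and by 1.37 ± 0.22 against N2 (0.000205). Without the 3 libraries that stood apart on the second component, its log2 fold change was -0.92 against HC125 and -1.56 against N2, and without N2 replicate 1 it was -1.17 against N2, all still called. In a bulk library, fewer cells that make these RNAs and fewer such RNAs per cell cannot be told apart. The summed counts of 10 germline and oocyte genes (none at 0 in any library) also differed, at 0.230% and 0.258% of counts in HC995 and 0.136% to 0.197% in the other 10 libraries, and msp counts were 0.0967% and 0.0681% in HC995. Their part in the result was not tested.

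Over the 5 groups together, rrf-2 was the 1 member of 7 called (edgeR quasi-likelihood test of all group differences, adjusted p = 0.00059), where 16.9% of all tested genes were called. By mean level the groups ran in the order N2 (184 CPM), F6 (176 CPM), F21 (172 CPM), HC125 (152 CPM) and HC995 (70.0 CPM). Neighbours in that order were called different only at the last step, between HC995 and HC125. Between HC125 and N2 the log2 fold change of rrf-2 was -0.29, with a 95% interval of -0.70 to 0.12.

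rde-12 (WBGene00010280, chromosome V, 13665389 to 13669292 on the plus strand) encodes the helicase that associates with Argonautes and EGO-1 and is needed for full RNAi. It had 257 and 272 CPM in HC995, against 425 and 350 CPM in F21, 388 and 389 CPM in F6, 333, 368, 390 and 397 CPM in HC125, and 406 and 339 CPM in N2. The HC995 libraries again lay below every other library, by a smaller ratio than at rrf-2. The fall was 0.50 ± 0.14 on the log2 scale against HC125, or 0.707 of its level with a 95% interval of 0.579 to 0.863 (edgeR adjusted p = 0.0152). It was 0.56 ± 0.16 against F21 (adjusted p = 0.0187), 0.55 ± 0.15 against F6 (0.0168) and 0.49 ± 0.16 against N2 (0.042). Against each of these groups the call was lost without either HC995 library, with adjusted p-values between 0.0608 and 0.194. It was also lost against F21 without F21 replicate 1 (0.303) and against F6 without F6 replicate 1 (0.097) or 2 (0.0811). Against N2 it was lost without F21 replicate 2 (0.0693), F6 replicate 1 (0.077), HC125 replicate 3 (0.0643) or N2 replicate 1 (0.195). In each of these fits the log2 fold change stayed below 0, and a group left with 1 library was assumed to vary like the others. Over the 5 groups its adjusted p was 0.0601.

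rrf-1 (WBGene00004508, chromosome I, 7643431 to 7649777, minus strand) encodes the polymerase that amplifies RNAi in the soma and acts beside EGO-1 in the germline. It had 149 and 142 CPM in HC995, against 209 and 159 CPM in F21, 202 and 205 CPM in F6, 211, 212, 179.8 and 195 CPM in HC125, and 158 and 208 CPM in N2. The HC995 libraries were the lowest, but 1 library each of F21 and N2 came close to them. The log2 fold change was -0.45 ± 0.15 against HC125 (edgeR adjusted p = 0.0475), and the call was lost in 9 of 20 alternatives. The adjusted p was 0.192 and 0.272 without HC995 replicate 1 and 2, 0.0594 without F21 replicate 2, 0.0867 and 0.0626 without F6 replicate 1 and 2, and 0.0625, 0.0705 and 0.0632 without HC125 replicates 1, 2 and 4. Against F21, F6 and N2 it was -0.37, -0.49 and -0.35, with adjusted p-values of 0.185, 0.0536 and 0.193.

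drh-3 (WBGene00008400, chromosome I, 7820831 to 7826378, plus strand) encodes the Dicer-related helicase on which 22G-RNA synthesis depends. Its 2 HC995 libraries stood at 110.0 and 106 CPM, against 143 and 152 CPM in F21, 139 and 152 CPM in F6, 148, 165, 117 and 139 CPM in HC125, and 146 and 141 CPM in N2. They were below every other library, yet none of the 4 comparisons passed the threshold. The log2 fold changes lay between -0.44 and -0.39, with edgeR adjusted p-values between 0.08 and 0.121. Without the 3 libraries that stood apart on the second component, drh-3 was called lower against F21 and F6, at an adjusted p of 0.014 and 0.00472, in a fit that called 23.3% and 28.2% of all tested genes in these comparisons.

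ego-1 (WBGene00001214, chromosome I, 7650341 to 7656338, minus strand) encodes the germline polymerase that is essential for fertility. It had 383 and 352 CPM in HC995, against 366 and 383 CPM in F21, 373 and 391 CPM in F6, 339.8, 421, 347 and 371 CPM in HC125, and 295 and 378 CPM in N2. The groups overlapped throughout. The log2 fold change was -0.01 against HC125, with a 95% interval of -0.30 to 0.28, and between -0.06 and 0.12 against the other 3 groups.

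rrf-3 (WBGene00004510, chromosome II, 8162465 to 8168651, plus strand) encodes the polymerase of the ERI complex, whose loss makes worms more sensitive to RNAi. It had 179 and 172 CPM in HC995, 181 and 198 CPM in F21, 174 and 203 CPM in F6, 157, 179.97, 169.8 and 198 CPM in HC125, and 122 and 145 CPM in N2. Both N2 libraries were the lowest of the 12, and HC995 lay among the others. The log2 fold change of HC995 was -0.02 against HC125, with a 95% interval of -0.31 to 0.27. Against N2, rrf-3 was 0.38 higher in HC995, 0.48 in F21, 0.49 in F6 and 0.40 in HC125 on the log2 scale. All 4 differences had an unadjusted p under 0.05, but the edgeR adjusted p-values were 0.134, 0.284, 0.134 and 0.372, so none was called. The 4 differences share the 2 N2 libraries, which held 55 and 129 counts of rrf-3, so they are not independent of each other.

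ekl-1 (WBGene00009052, chromosome I, 7095486 to 7098400, plus strand) encodes the Tudor domain protein found with DRH-3 and the polymerases. It had 52.3 and 43.7 CPM in HC995, 44.7 and 54.4 CPM in F21, 48.1 and 52.6 CPM in F6, 36.6, 57.7, 43.3 and 52.9 CPM in HC125, and 51.02 and 57.2 CPM in N2. The groups overlapped. HC125 replicate 1 held 17 counts of ekl-1, the smallest count of any member in any library. The log2 fold change of HC995 was -0.02 against HC125, with a 95% interval of -0.40 to 0.35, so a change of the size seen at rde-12 was outside the interval there.

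**Figure D2:**
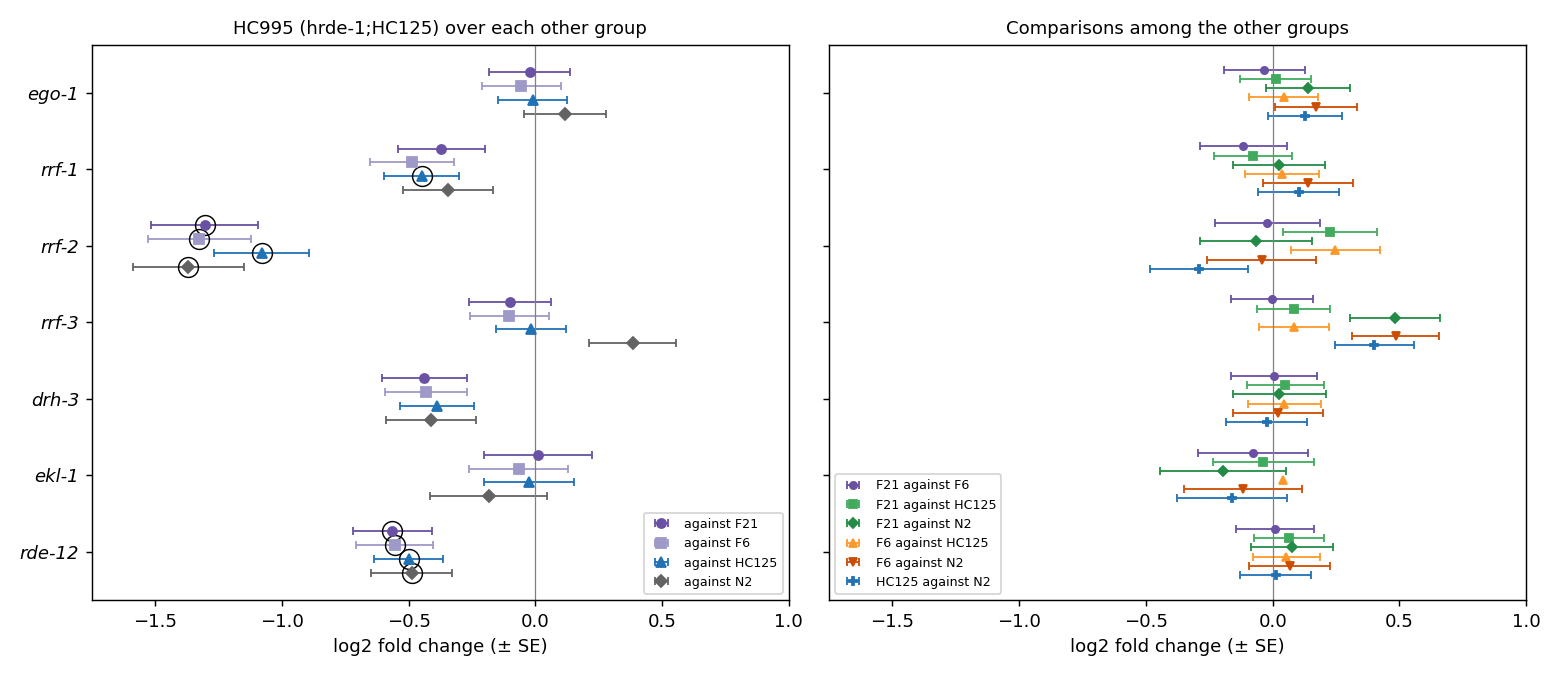
Log2 fold change with its SE (horizontal axis) at each module gene, for HC995 over each other group on the left and for the 6 comparisons among the other groups on the right. Circles mark calls at an adjusted p under 0.05. The calls are rrf-2 and rde-12 in all 4 comparisons on the left and rrf-1 against HC125, and there is no circle on the right. No SE could be derived for ekl-1 in F6 against HC125, which has a point alone.

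The other 6 comparisons called no member with edgeR's quasi-likelihood test, and DESeq2 also called 0 of 7 in each. F21 against F6, the de-silenced generation against the silenced one, called 0.143% of all tested genes. The shares of all genes called were 0.248% in F21 against HC125, 0.201% in F21 against N2, 0.621% in F6 against HC125, 1.43% in F6 against N2 and 0.506% in HC125 against N2. Calls were so few over all genes there that 0 of 7 says little about the members. At an unadjusted p under 0.05 there were 0 members in F21 against F6, F21 against HC125 and F6 against HC125, and 1 in each comparison with N2, which was rrf-3. That is near the share of all tested genes at the same threshold, which was 14.2% in F21 against N2, 19.6% in F6 against N2 and 10.5% in HC125 against N2. In F21 against F6 the log2 fold changes lay between -0.12 (rrf-1) and 0.01 (rde-12), and for rrf-2 the 95% interval was -0.46 to 0.41. At sid-1 itself F21 had 766 CPM and F6 had 4446 CPM, a log2 fold change of -2.54 (edgeR adjusted p = 1.57e-07).

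Per length, the members ranged from moderate to high small RNA density among 10351 genes. As a mean over the 12 libraries, rde-12 had 109 CPM per kilobase of exon, at the 89.1 percentile, and ego-1 had 69.3, at the 82.6 percentile. drh-3 (39.4 CPM per kilobase), rrf-1 (37.0), rrf-3 (31.3) and rrf-2 (31.1) followed between the 62.2 and 69.1 percentiles, and ekl-1 (23.1) lay near the median of all genes, 20.4 CPM per kilobase. In HC995, rrf-2 had 14.4 ± 2.47 CPM per kilobase and was the lowest of the 7 members, below ekl-1 at 22.4 ± 2.85. The order of the members was the same per kilobase of coding sequence.

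**Figure D3:**
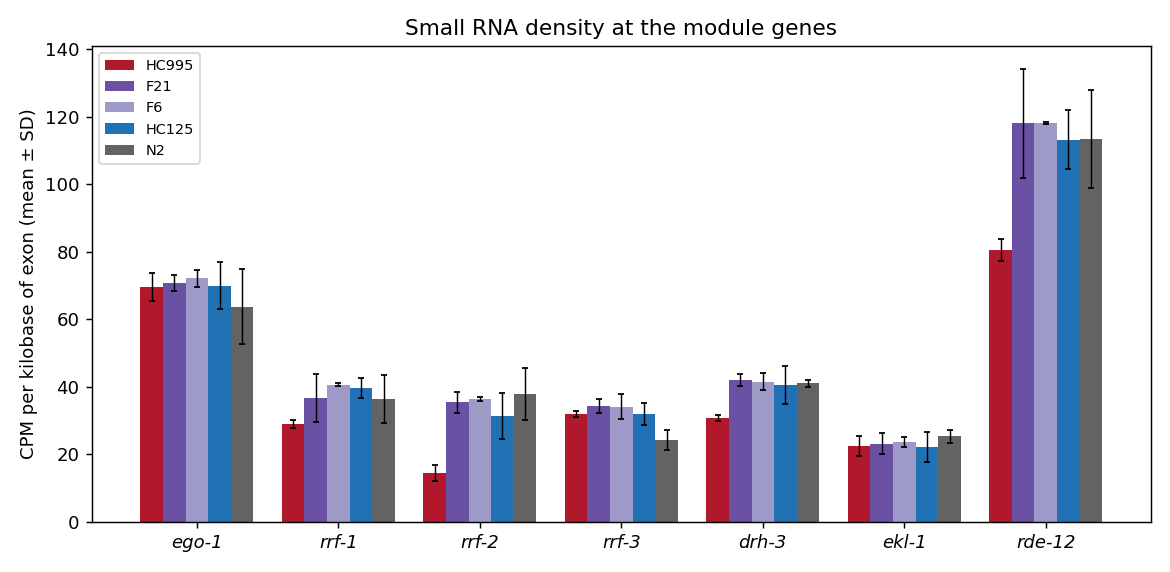
Small RNA density of each module gene in CPM per kilobase of exon (vertical axis, starting at 0), as the mean of each group with its SD (n = 2, n = 4 for HC125). rde-12 is the densest member in every group, and rrf-2 is the lowest only in HC995, at 14.4 CPM per kilobase.

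The make-up of the module's small RNAs is given as a description, without a test. rrf-2 took 6.49% (95% Wilson interval 5.94 to 7.08) and 5.35% (4.72 to 6.07) of the counts over the 7 genes in the HC995 libraries, against 8.88% to 15.2% in the other 10 libraries. ego-1 took 31.7% (30.6 to 32.8) and 30.6% (29.3 to 32.0) in HC995, against 21.25% to 27.2% elsewhere. rrf-3 took 14.8% (14.02 to 15.7) and 15% (13.96 to 16.1) in HC995, against 8.79% to 13.6% elsewhere. For each of these 3 genes the HC995 libraries did not overlap the others. How often shares in other sets of genes separate in this way was not counted. The shares of the other 4 members overlapped. Shares of 1 total depend on each other, so the higher shares of ego-1 and rrf-3 stand beside CPM levels that were not called different. The intervals cover counting error only, because PCR copies of 1 molecule cannot be told from separate molecules here.

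**Figure D4:**
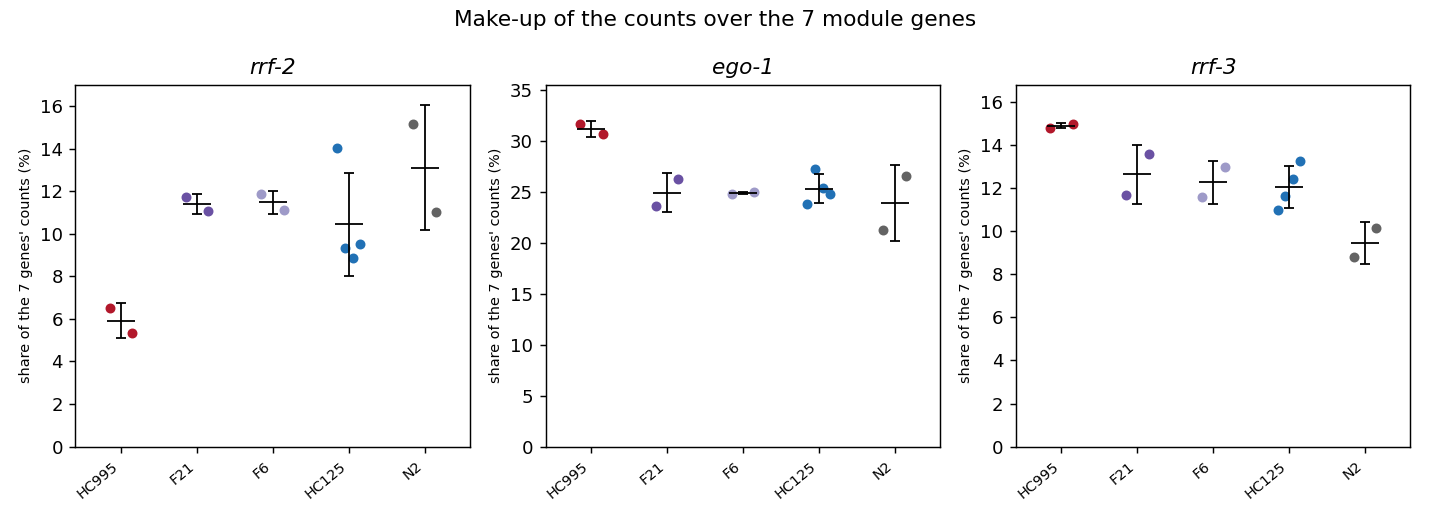
Share of the counts over the 7 module genes (percent, vertical axes starting at 0) taken by rrf-2, ego-1 and rrf-3 in each library, with the mean ± SD of each group (n = 2, n = 4 for HC125). The HC995 libraries lie below all others for rrf-2, at 5.35% and 6.49%, and above all others for ego-1 and rrf-3. How often shares in other sets of genes separate in this way was not counted.

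Chromosome I holds 5 of the 7 members. ego-1 and rrf-1 lie next to each other on the same strand, 563 bases apart, yet their counts did not keep 1 ratio. ego-1 had 2.57 (95% interval 2.38 to 2.77) and 2.49 (2.25 to 2.75) counts for each count of rrf-1 in HC995, against 1.61 to 2.40 in the other 10 libraries. The mean ratio was 2.53 in HC995 and 1.90 in the others. The ratio restates the ego-1 and rrf-1 levels given above, so it is a description and adds no support to them. The highest of the other libraries, at 2.40, was F21 replicate 2, whose interval was 1.86 to 3.11. The 2 genes are paralogs, and the sources used here do not say how reads that match both were counted, so the split between them is uncertain to that extent.

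Of the annotated genes next to the members, F26A3.4 alone was called in any comparison. It lies 639 bases from ego-1 on the same strand, and had 301 and 279 CPM in HC995, against 81.9 and 77.8 CPM in F21, 102 and 104 CPM in F6, 92.5, 121, 86.6 and 96.0 CPM in HC125, and 71.0 and 62.9 CPM in N2. Every HC995 library exceeded every other library. It rose by 1.55 ± 0.14 on the log2 scale against HC125, or 2.93-fold (edgeR adjusted p = 1.97e-07), and by 1.85, 1.49 and 2.13 against F21, F6 and N2. Across this short run of genes, F26A3.4 was higher in HC995, ego-1 was not called and rrf-1 was called lower against HC125.

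Y47H10A.5, 676 bases from rrf-2 on the same strand, averaged 817 ± 64.5 CPM in HC995 and 637 ± 139 CPM in HC125 (SD, n = 2 and n = 4). Its log2 fold change was 0.37 (edgeR adjusted p = 0.18), the opposite sign to rrf-2. M01G12.14 on the other side of rrf-2 held 3 counts over all libraries and was not tested. letm-1 and mip-2, the genes beside rde-12, were not called either, with log2 fold changes in HC995 against HC125 of 0.23 and 0.12. T05C12.11 overlaps rrf-3 by 37 bases on the opposite strand and held 2 counts in all. How reads in the shared bases were assigned is not given, so their part in the rrf-3 count was not tested. The exons of rrf-3 span 5530 bases.

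**Figure D5:**
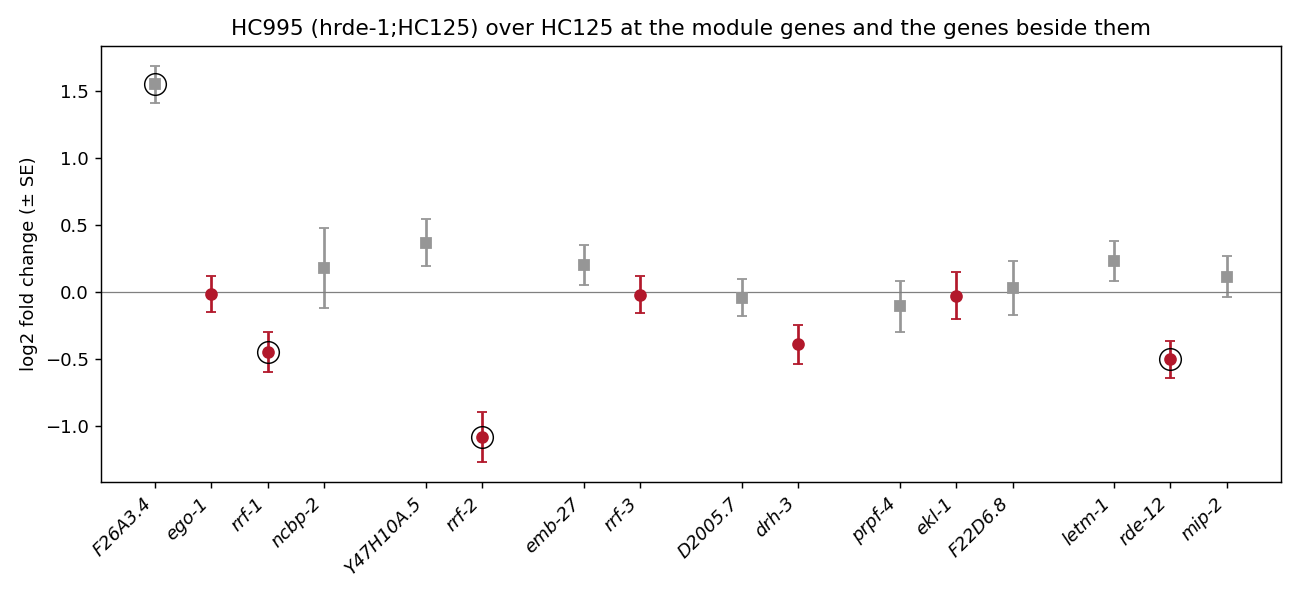
Log2 fold change of HC995 over HC125 with its SE (vertical axis) at the module genes (red circles) and the tested genes next to them (grey squares), grouped by neighbourhood. Rings mark calls at an adjusted p under 0.05. F26A3.4, beside ego-1, lies at 1.55, while rrf-2 lies at -1.08 and its neighbour Y47H10A.5 at 0.37.

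Genes with which the members work were read beside them, as 46 genes in 6 lists, of which 45 were tested. In HC995, 1 list gene was called higher and 1 lower against F21, 1 higher and 2 lower against F6, 2 higher and 1 lower against HC125, and 1 higher and 3 lower against N2. These 2 to 4 calls among 45 genes are a smaller share than the 14.7%, 17.3%, 17% and 17.7% of all tested genes called there. The lists' median log2 fold change was 0.01 in HC995 against HC125, where that of all tested genes was -0.03. None of the 10 mutator foci genes, the 6 cofactors of RDE-12 and exogenous RNAi, the 8 P granule and Z granule genes or the 2 EGO-1 partners csr-1 and cid-1 was called by edgeR's quasi-likelihood test in any of the 10 comparisons. At an unadjusted p under 0.05 there were 17 among the 260 tests of these 26 genes, beside 2.77% to 31.6% of all tested genes in the same comparisons. DESeq2 called 2, at glh-1 and deps-1.

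The calls lay among the Argonautes that bind secondary small RNAs and among the RRF-3 partners. wago-1, a germline Argonaute of the 22G-RNA pathway, had 339.3 and 349.7 CPM in HC995, against 208 and 227 CPM in F21, 211 and 207 CPM in F6, 187, 211, 216 and 213 CPM in HC125, and 189 and 222 CPM in N2. It rose by 0.73 ± 0.12 against HC125 (edgeR adjusted p = 0.000311) and by 0.67, 0.72 and 0.74 against F21, F6 and N2. hrde-1 fell by 1.01 ± 0.17 against HC125 (adjusted p = 0.000254), and by 0.95, 0.98 and 0.73 against F21, F6 and N2. dcr-1, which encodes Dicer, rose by 0.42 against HC125, with 168 ± 2.88 CPM in HC995 and 125 ± 12.7 CPM in HC125 (adjusted p = 0.0336).

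wago-5 was lower in HC995 against F6 (log2 fold change -0.89, edgeR adjusted p = 0.0498) and N2 (-1.21, 0.0214), at 22.7 ± 6.12 CPM in HC995, 42.5 ± 3.50 CPM in F6 and 52.5 ± 5.17 CPM in N2 (SD, n = 2 each). It was not called against F21 (36.0 ± 1.37 CPM) or HC125 (29.9 ± 11.8 CPM, n = 4). alg-3, an Argonaute of the male germline that binds 26G-RNAs, was lower against N2 in HC995 (-1.82, adjusted p = 0.0409) and in F6 (-3.49, 0.014). It had 9.72 and 3.24 CPM in HC995, 3.75 and 3.89 CPM in F21, 1.29 and 2.74 CPM in F6, 10.8, 15.3, 9.99 and 6.05 CPM in HC125, and 13.3 and 31.4 CPM in N2. HC995 was not called different from F21, F6 or HC125 at alg-3. The higher N2 value came from replicate 2, the library with the highest share of msp counts, whose part in the result was not tested.

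2 genes had profiles nearest to that of rrf-2 over the 12 libraries, by the root mean square difference of centred log2 CPM among 7311 genes with a mean of at least 10 CPM. They were fbxa-169, an F-box gene, at 0.119, and K04B12.2 at 0.121, where the median gene stood at 0.623 and the nearest member, rde-12, at 0.365. fbxa-169 had 58.3 and 49.6 CPM in HC995, against 116 and 124 CPM in F21, 132 and 120.3 CPM in F6, 161, 118, 85.5 and 93.6 CPM in HC125, and 151 and 129 CPM in N2. K04B12.2 had 308 and 271 CPM in HC995, and 477 to 799 CPM in the other 10 libraries. These profiles were chosen for their likeness, so they are a description and no test was made of it.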

How the data were processed

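The unit of the deposited table is raw counts, one whole number for each gene and library, over reads of 21 to 26 nt in 12 libraries of 5 groups. The authors used Bowtie2 and HTSeq, per the submitters' processing notes. Not given in the sources used here are their versions, the genome build, the strand setting and how multiply matching reads were handled. A library total is therefore the assigned reads, not its depth. Genes were named and placed by ID with the Ensembl release 115 annotation of WBcel235, which may differ from the build the authors used. Reads of the sense strand may be included. The 2 HC125 libraries described as 5'-dependent are not analysed here, and no sequences are shown.

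The counts were fitted in R 4.3.3 with edgeR 4.0.16 (filterByExpr with a minimum count of 10 and a minimum total of 15, TMM scaling, robust quasi-likelihood F test, two-sided), in 1 model of 5 groups with 7 residual degrees of freedom. A gene was called at a Benjamini-Hochberg adjusted p under 0.05 over all 10470 tested genes, and each fold change has the group named first on top. SEs and 95% intervals came from the F statistic. A count of 3 corresponds to 0.503 CPM in the deepest and 6.45 CPM in the shallowest library. DESeq2 1.42.0, other scalings, other sets of libraries and a replicate block were tried as alternatives. Of 20 pairs of same-numbered replicates in different groups, 2 deviated together with a correlation over 0.1. In groups of 2 the deviations of the replicates mirror each other, so these 20 values are not separate. The main model used no pairing. Only same-numbered libraries were compared, so the check cannot exclude another pairing or a batch. Counts were also simulated with 100 genes changed 2-fold and 100 changed 4-fold, fewer than the 1537 to 1857 genes called in HC995. False calls made up 5.94% to 9.63% of calls in the 4 comparisons with HC995 and 1.83% to 7.81% in the others. Of the 2-fold changes 21% to 52% were called, and of the 4-fold changes 51% to 78%. The changed genes were drawn at random from all tested genes, so these rates do not describe the members. edgeR's coefficient of variation among replicates ranged from 0.116 (rde-12) to 0.147 (rrf-2) at the members, with a median of 0.185 over all tested genes.

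The members and lists were chosen with earlier results of these data known. The named genes were the members, the annotated genes next to or overlapping them, sid-1, hrde-1, up to 4 called list genes in each comparison, and the 2 genes with profiles nearest to a member called over the 5 groups. Of 52 list names 46 genes were used, since several names are synonyms and wago-11 matched no gene name. wago-10 did not pass the filter.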

Additional observations from a re-analysis of the deposited data

How the results depend on the processing

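The fall of rrf-2 in HC995 was called under all 20 alternatives in each of the 4 comparisons, with log2 fold changes between -1.56 and -0.92, and no fold change of a called member reversed. The rde-12 call was lost in 3 of 20 alternatives against F21, 4 against F6, 2 against HC125 and 9 against N2. Leaving out 1 library at a time gave 1 to 2 members called against F21, 1 to 4 against F6, 1 to 4 against HC125, 1 to 2 against N2, 1 to 2 over the 5 groups, and 0 in each of the 6 other comparisons. The share of all tested genes called also moved with the library left out. Leaving out HC125 replicates 1 and 2 and N2 replicate 2 left N2 with 1 library. More members were then called against F21, against F6 and over the 5 groups than in the main fit. A larger share of all tested genes was called there too. With only the 2 groups compared, 4 were called against F6 and 1 against N2, where 35% and 17.6% of all genes were called. Against N2, 1 was called with no filter on low counts, where 13.4% of all genes were called. Over the 5 groups 2 were called with DESeq2, 2 with RLE size factors and 2 with library size alone. These settings called 18%, 17% and 17% of all genes, against 16.9% in the main fit. A replicate block gave 4 calls against F6 and 3 over the 5 groups, where 22.5% and 27% of all genes were called. However, the labels give same-numbered libraries no link beyond the number, and the correlations of their deviations lay between -0.25 and 0.31. Scaling by library size alone moved the median of all genes by -0.12 in HC995 against HC125 and by -0.10 against N2, and relative to it rrf-2 changed by -1.05 and -1.35. It also moved the calls there to 645 higher and 1194 lower, against 812 and 963 with TMM, and in HC995 against N2 to 701 and 1060, against 926 and 931. Over the settings, 7.72% to 35% of all genes were called in the 4 comparisons with HC995, 0.0571% to 8.04% in the others and 9.33% to 28.6% over the 5 groups. The cause of these moves was not tested. Leaving out 1 library at a time, the difference in share between HC995 and the others was 5.78 to 6.83 percentage points for ego-1. It was -6.02 to -4.88 for rrf-2 and 2.88 to 3.41 for rrf-3, an alternative chosen after seeing the data. Only members whose HC995 shares did not overlap the others were taken. The sign was therefore fixed beforehand, and these ranges add no support to the differences. In the shallowest libraries counts of ekl-1 were between 17 and 28, which limits what can be seen there.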
